A study of Mus musculus with 6 samples.

Results

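The genes described here are 39 markers of neural stem cells, radial glia and astrocytes, measured in neurospheres grown from the wall of the lateral ventricles. They were taken as every probe set on the array whose platform annotation gives a single symbol from this list, which selected 109 of 45037 probe sets and all 39 genes, out of 18193 genes with a probe set of their own. The cultures came from adult female mice aged 84 days and were expanded for 7 days with EGF and FGF2. The 3 Ts1Cje cultures carry 3 copies of distal chromosome 16 on a C57BL/6 background, the product of a translocation that arose when Sod1 was targeted, and the 3 cultures set against them were from disomic C57BL/6 littermates. Each culture was hybridised to 1 Affymetrix mouse genome array. None of the 39 genes lies on chromosome 16.

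Stem cells of the adult subventricular zone are themselves a kind of astrocyte. They descend from radial glia, keep an intermediate filament network of nestin and vimentin, express Sox2, and share with parenchymal astrocytes the machinery for taking up glutamate and for buffering water and ions. In a neurosphere these cells sit beside the progenitors they produce, and mature astrocyte proteins such as GFAP accumulate once the growth factors are removed. Shared markers therefore do not separate a stem cell from an astrocyte in a mixed culture. In these bulk samples a smaller number of cells of one type and less RNA per cell cannot be told apart.

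Differences are given as M, the average log2 intensity in Ts1Cje less the average in disomic cultures, and levels as A, the average over all 6 arrays. A probe set with A above 5 was taken as expressed, and each gene is represented by its brightest probe set. Expression reached that level for 34 of the 39 genes, and Gfap, S100b, Gjb6, Thbs4 and Hopx stayed below it. The test was limma's moderated t over all probe sets, with a moderated t past 4 as the study's own cut off, and values on different probe sets are not compared as levels. The 6 arrays were alike, with correlations between 0.991 and 0.997, but the control probe sets for RNA quality differed with genotype. The signal of the 3' actin probe set above the 5' one was 1.87 to 2.26 on Ts1Cje arrays and 1.53 to 1.83 on disomic arrays, and the 18S control ran from 11.97 to 12.36 on Ts1Cje and 10.24 to 11.74 on disomic arrays. The same difference for Gapdh was 2.29 to 2.44 on Ts1Cje arrays and 2.09 to 2.28 on disomic arrays. The part of these differences in the results below was not tested.

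Stem cell genes had M values close to 0, and most astrocyte genes had M values above 0, with Slc4a4 alone past the cut off. Of the 34 expressed members 27 had an M above 0, or 79.4%, where 53.9% of all 8947 expressed genes did. The count was 22 without Ts1Cje replicate 3, beside 52% of all expressed genes, and 22 without disomic replicate 2, beside 54.3%. The median M was 0.01 over the 5 stem cell genes, 0.07 over 6 expressed regulators of glial fate and 0.16 over 23 expressed astrocyte genes, and 0.02 over all expressed genes. Only Slc4a4, 1 member of 34, had a moderated t past 4 upwards, where 1.13% of all expressed genes did, and no member was below -4, where 0.693% were. No gene of this list passed after adjustment over all probe sets (limma, smallest adjusted p = 1), and 2 had an unadjusted p under 0.05, where 6.61% of expressed genes did. The Ts1Cje arrays all lay above the disomic arrays for 3 of the 34 members, beside 6.12% of all expressed genes, and all below for none, beside 5.16%. The precision of 3 arrays per genotype is limited, and an exact permutation test of a single gene cannot give a p under 0.1.

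**Figure D1:**
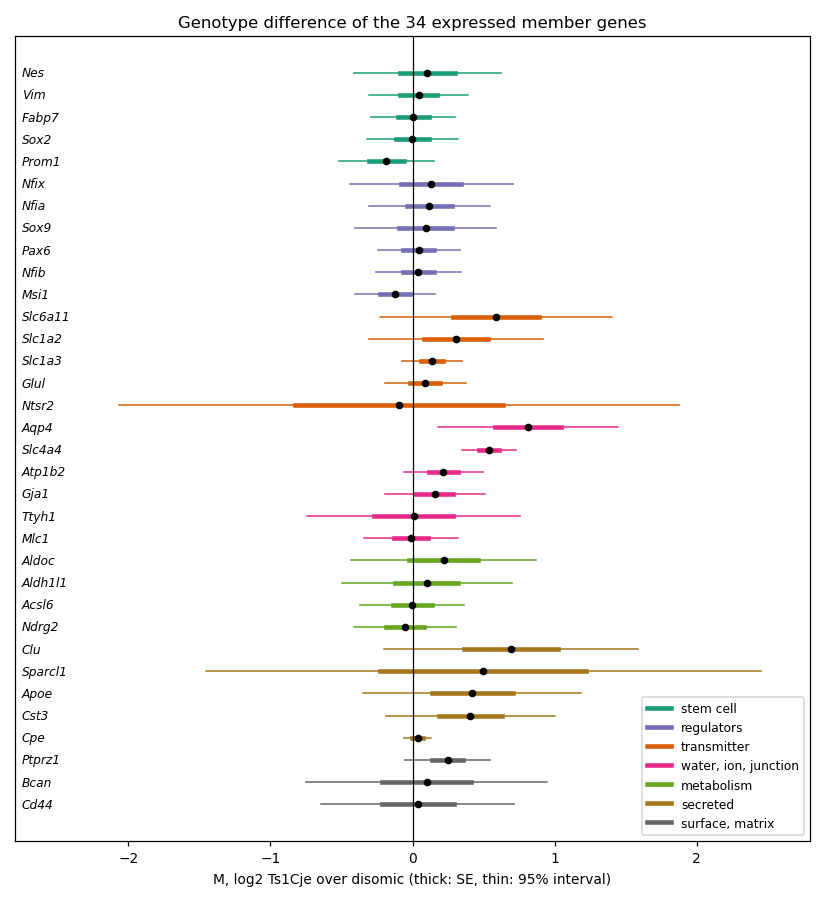
M (log2 Ts1Cje over disomic, horizontal axis) of the 34 expressed members, from 3 Ts1Cje and 3 disomic arrays, grouped by role, with thick bars for the standard error and thin bars for the 95% interval. The stem cell genes centre on 0, and the intervals of Aqp4 and Slc4a4 alone lie wholly above it.

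The 5 genes listed as stem cell genes, which other cells of the culture may share, did not separate the genotypes. Sox2, the transcription factor that maintains self-renewal, had log2 intensities of 13.11, 13.28 and 13.25 in Ts1Cje neurospheres, against 13.09, 13.12 and 13.44 in disomic neurospheres. Fabp7, a fatty acid binding protein of radial glia, stood at 14.63, 14.65 and 14.59 on the Ts1Cje arrays and 14.62, 14.42 and 14.82 on the disomic arrays. Both groups overlapped on each gene, and the disomic values spread more widely than the Ts1Cje values. M was -6.41e-05 for Sox2 and 0.01 for Fabp7. Their 95% intervals held fold changes of 0.803 to 1.25 and 0.818 to 1.23.

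The intermediate filament genes also overlapped between the groups. Nes, which encodes nestin, gave 9.87, 10.09 and 10 in Ts1Cje and 9.87, 9.56 and 10.22 in disomic neurospheres, with M = 0.11 and a standard error of 0.19. For Vim, vimentin, the values were 14.10, 14.00 and 14.32 in Ts1Cje and 14.22, 13.91 and 14.15 in disomic neurospheres (M = 0.04, standard error 0.13). Neither gene had a group that stood clear of the other. The second expressed probe set of Nes had M = -0.04, and the 2 dimmer ones of Vim had M values of -0.09 and 0.02.

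Prom1, the membrane glycoprotein CD133 of neural and other stem cells, had the M furthest from 0 of the stem cell genes over all 6 arrays. It read 9.39, 9.03 and 9.42 in Ts1Cje and 9.46, 9.42 and 9.52 in disomic neurospheres. The groups met at 9.42, and Ts1Cje replicate 2 alone lay well under the rest. M was -0.19 with a standard error of 0.12, and -0.06 without that culture. Of the 5 stem cell genes 4 had intervals that held no 1.5-fold change in either direction, and that of Nes, the exception, reached 1.54.

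Regulators that stem cells share with astrocytes also had small M values on their brightest probe sets. Nuclear factor I proteins drive the onset of glial gene expression, and their genes Nfia, Nfib and Nfix had M values of 0.12, 0.04 and 0.13, with standard errors of 0.16, 0.11 and 0.21. Sox9, which specifies glial fate, averaged 10.72 ± 0.30 in Ts1Cje and 10.63 ± 0.14 in disomic neurospheres (SD, n = 3 each), and Pax6, a homeobox gene of radial glia near the limit of expression, 5.24 ± 0.17 in Ts1Cje and 5.20 ± 0.10 in disomic neurospheres (SD, n = 3 each). Msi1, an RNA-binding protein of neural stem cells, was the only expressed regulator below 0, with M = -0.12. None of the 6 had groups without overlap. Probe sets of one gene disagreed in sign for Nfia, Nfib and Msi1, from -0.30 to 0.42 for Nfia, from -0.24 to 0.62 for Nfib and from -0.12 to 0.64 for Msi1. The second expressed probe set of Sox9 had M = 0.31 (standard error 0.23). The homeodomain protein gene Hopx had A = 2.45 and gave no usable signal.

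Slc4a4 showed the clearest difference of the list. It encodes an electrogenic sodium bicarbonate cotransporter by which astrocytes regulate pH. The 3 Ts1Cje cultures gave 11.67, 11.63 and 11.65 and the 3 disomic cultures 11.12, 10.98 and 11.23. Every Ts1Cje value was above every disomic value, with very little spread among the Ts1Cje cultures. M was 0.54 with a standard error of 0.07, a fold change of 1.45 (95% interval 1.27 to 1.66), and the moderated t was 7.64. The adjusted p over all probe sets was 1 in limma. All 4 expressed probe sets of the gene were higher in Ts1Cje, with M values of 0.54, 0.20, 0.88 and 0.60 from the brightest to the dimmest, and 3 of them had no overlap between the groups. When the probe sets were averaged within each gene, M was 0.55 and the moderated t was 3.52, short of 4.

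Promoter sequence is given for Slc4a4, as the gene with the clearest difference, beside Fabp7 and Gfap, which stand for the stem cell and the astrocyte genes. The 250 bases before each transcript start are shown as in RefSeq (GRCm38.p6), read along the strand of the gene, and Slc4a4 has 2 starts in that table. Capitals mark the nuclear factor I half-site TTGGC or its reverse complement GCCAA. The core bound by SOX proteins, CATTGT or its reverse complement ACAATG, was searched as well and is in none of these 4 stretches.
Slc4a4, first start (chr5:88887010-88887259, plus strand): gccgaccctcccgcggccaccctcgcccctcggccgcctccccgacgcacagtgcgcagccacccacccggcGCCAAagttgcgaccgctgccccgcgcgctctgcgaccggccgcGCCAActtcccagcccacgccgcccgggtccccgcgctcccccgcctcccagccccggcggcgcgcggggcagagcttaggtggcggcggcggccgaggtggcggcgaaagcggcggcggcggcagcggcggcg
Slc4a4, second start (chr5:89027716-89027965, plus strand): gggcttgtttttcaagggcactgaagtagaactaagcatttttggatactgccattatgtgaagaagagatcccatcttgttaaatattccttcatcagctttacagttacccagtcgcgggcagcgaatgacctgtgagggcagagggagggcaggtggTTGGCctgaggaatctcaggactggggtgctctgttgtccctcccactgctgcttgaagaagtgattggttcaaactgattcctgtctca
Fabp7 (chr10:57784673-57784922, plus strand): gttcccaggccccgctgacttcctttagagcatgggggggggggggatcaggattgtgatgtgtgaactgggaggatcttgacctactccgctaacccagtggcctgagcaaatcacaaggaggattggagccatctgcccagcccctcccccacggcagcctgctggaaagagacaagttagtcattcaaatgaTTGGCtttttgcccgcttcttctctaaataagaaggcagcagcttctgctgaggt
Gfap (chr11:102897201-102897450, minus strand): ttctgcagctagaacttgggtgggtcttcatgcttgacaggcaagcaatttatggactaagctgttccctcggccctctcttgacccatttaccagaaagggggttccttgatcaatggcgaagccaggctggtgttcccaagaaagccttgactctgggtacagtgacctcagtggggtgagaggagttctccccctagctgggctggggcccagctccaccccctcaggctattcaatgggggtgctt

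The first Slc4a4 promoter is rich in G and C, at 82.0% of bases, and holds 2 half-sites, while the second has 48.8% and 1 half-site. Fabp7 has 1, and Gfap has none in this stretch. The promoter table covers 31 of the 39 genes with 45 starts, and a half-site on either strand was found before 46.7% of them, against 41.5% of 32806 starts of other genes. The SOX core was found before 6.7% of member starts and 10.7% of the others. These are counts of letters and say nothing of binding.

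Genes for water, ions and gap junctions held both members whose intervals lay above 0. Aqp4, the water channel of astrocyte endfeet, had intensities of 11.41, 11.77 and 11.95 in Ts1Cje neurospheres and 10.65, 11.26 and 10.78 in disomic neurospheres. All 3 Ts1Cje cultures lay above all 3 disomic ones, the nearest disomic culture being replicate 2. M was 0.81 with a standard error of 0.23, a fold change of 1.76 (95% interval 1.13 to 2.72), and the moderated t of 3.47 did not reach 4. It was past 4 without Ts1Cje replicate 1 (4.09) and without disomic replicate 2 (4.97). Its dimmer probe sets had M values of 0.82 and 0.48, each with overlapping groups. Atp1b2, the beta subunit of the sodium pump that also serves as an adhesion molecule on glia, had M = 0.22 (standard error 0.10).

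Other members of this group were near 0. Mlc1, a membrane protein of astrocyte junctions, and Ttyh1, of the tweety family of anion channels, had M values of -0.01 and 0.01. Gja1, the main connexin of astrocytes, averaged 13.40 ± 0.09 in Ts1Cje and 13.24 ± 0.22 in disomic neurospheres (SD, n = 3 each). That probe set had M = 0.16, and the dimmer expressed ones of Gja1 had M values of 0.01, 0.03, 0.09 and 0.01. Gjb6, a second astrocyte connexin that is typical of mature cells, was not expressed (A = 2.56).

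**Figure D2:**
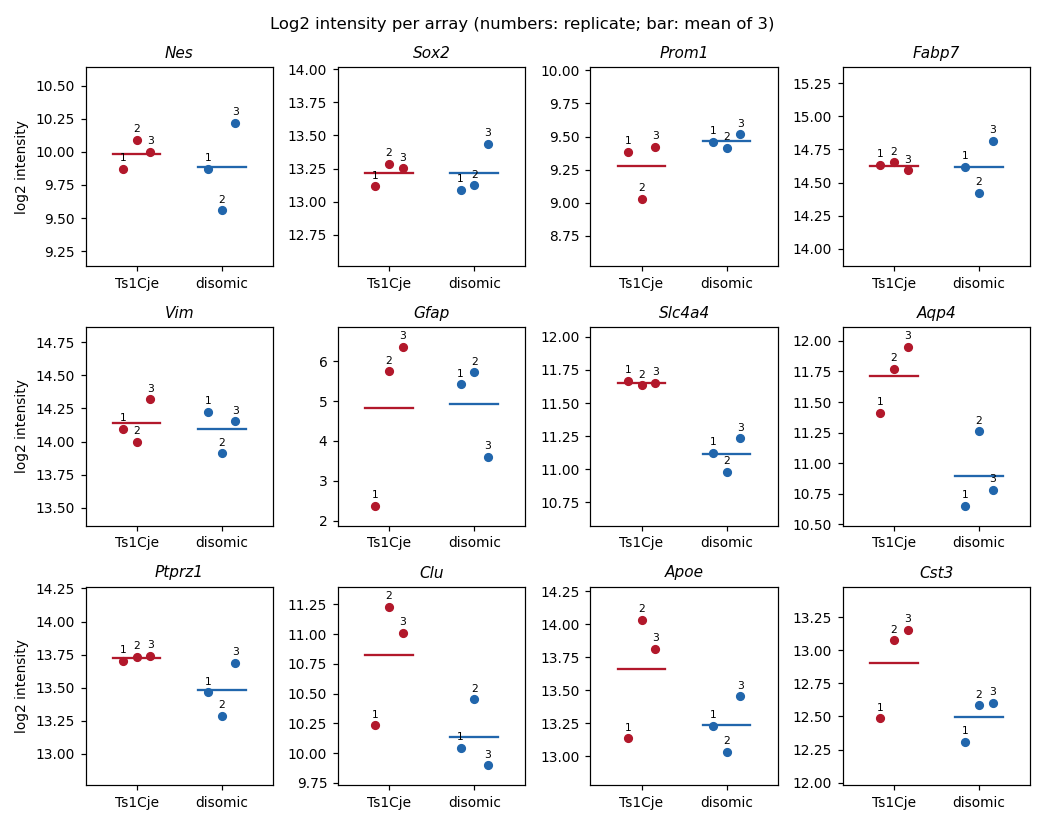
Log2 intensity of 12 members on each array, with Ts1Cje at the left and disomic at the right of each panel, replicate numbers at the points and bars for the mean of 3 arrays (each panel has its own vertical scale). Slc4a4, Aqp4 and Ptprz1 have no overlap between the groups, and Ts1Cje replicate 1 lies apart from the other Ts1Cje arrays for Gfap, Clu, Apoe and Cst3.

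Gfap, the classical astrocyte filament, was low and variable in both genotypes. Its brightest probe set gave 2.37, 5.75 and 6.36 in Ts1Cje and 5.42, 5.72 and 3.61 in disomic neurospheres, for A = 4.87. One culture of each genotype was far below the others, and Ts1Cje replicate 1 was close to the floor of the arrays. M was -0.09 with a standard error of 1.35, so that the interval holds large changes either way. The other 2 probe sets had A values of 3.68 and 2.43. S100b, a calcium-binding protein of mature astrocytes, was not expressed either (A = 2.97). Gfap was above 5 on 4 of the 6 arrays and S100b on none.

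Of the 5 genes for transmitter uptake and sensing 4 had an M above 0, and none passed the cut off. Slc1a3 and Slc1a2 encode the glutamate transporters GLAST and GLT-1. Slc1a3 averaged 12.79 ± 0.13 in Ts1Cje and 12.65 ± 0.07 in disomic neurospheres, and Slc1a2 11.33 ± 0.36 in Ts1Cje and 11.02 ± 0.19 in disomic neurospheres (SD, n = 3 each). A second Slc1a3 probe set read 11.79, 11.78 and 11.97 in Ts1Cje and 11.75, 11.37 and 11.65 in disomic neurospheres, without overlap (M = 0.26), while the dimmest expressed one had M = -0.07. The 3 expressed probe sets of Slc1a2 had M values of 0.31, 0.67 and 0.55. Slc6a11, a GABA transporter of astrocytes, had M = 0.59 with a standard error of 0.30, and disomic replicate 3, at 7.69, reached the lowest Ts1Cje culture. Glul, which turns glutamate into glutamine, had M = 0.09. Ntsr2, a neurotensin receptor of astrocytes, ranged from 5.07 to 7.43 within the Ts1Cje cultures alone and had the largest standard error of the 34 expressed members, 0.73, around M = -0.10.

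Metabolic genes of astrocytes did not separate the genotypes. Aldoc, the aldolase of brain, and Aldh1l1, a folate enzyme widely used to mark astrocytes, had M values of 0.22 and 0.10, with standard errors of 0.24 and 0.22. Acsl6, which activates long fatty acids, was at -0.0027 and Ndrg2 at -0.05.

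Secreted proteins had the highest median of any role, 0.42, with all 5 expressed members above 0 and none past the cut off. Clu, the extracellular chaperone clusterin, gave 10.23, 11.23 and 11.01 in Ts1Cje and 10.04, 10.45 and 9.90 in disomic neurospheres. Apoe, the main lipid carrier of brain, gave 13.14, 14.03 and 13.81 in Ts1Cje and 13.23, 13.03 and 13.45 in disomic neurospheres. For Cst3, the protease inhibitor cystatin C, the values were 12.49, 13.08 and 13.15 in Ts1Cje and 12.31, 12.58 and 12.60 in disomic neurospheres. On all 3 genes Ts1Cje replicates 2 and 3 were above every disomic culture and Ts1Cje replicate 1 was among them. The M values were 0.69, 0.42 and 0.41, with standard errors of 0.33, 0.28 and 0.22. All 4 probe sets of Clu lay between 0.63 and 0.72. Sparcl1, a matrix protein that promotes synapses, had M = 0.50 with a standard error of 0.73, and Cpe, a carboxypeptidase that processes peptide hormones, M = 0.04 with the smallest standard error of the 34 expressed members, 0.04. Thbs4, a thrombospondin of stem-cell astrocytes, was not expressed (A = 2.37).

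Among the surface and matrix genes Ptprz1 was the third member without overlap. This receptor tyrosine phosphatase, whose extracellular part is also a matrix proteoglycan, read 13.70, 13.74 and 13.74 in Ts1Cje and 13.46, 13.29 and 13.69 in disomic neurospheres. Disomic replicate 3 was nearly as high as the Ts1Cje cultures, and the other 2 were lower. M was 0.25 with a standard error of 0.11, a fold change of 1.19, and the moderated t was 2.20. Without disomic replicate 2 M was 0.15, and without disomic replicate 3 it was 0.35 with a moderated t of 5.46. Its 3 probe sets were all above 0, at 0.25, 0.25 and 0.17. Cd44, the hyaluronan receptor, and Bcan, brevican, had M values of 0.04 and 0.10 and overlapping groups.

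**Figure D3:**
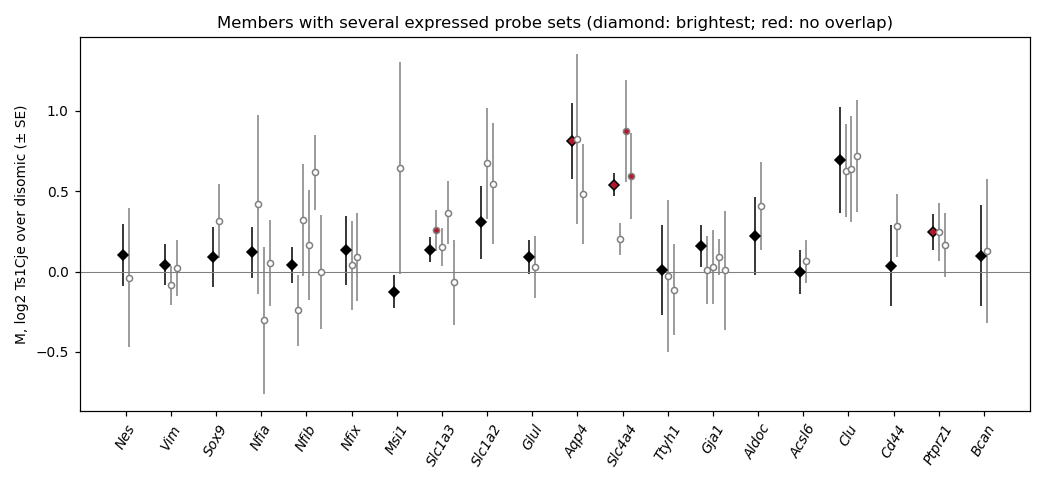
M (log2 Ts1Cje over disomic, vertical axis) with its standard error for each expressed probe set of the 20 members that have several, brightest first within a gene, with diamonds for the brightest and red for no overlap between the groups. Slc4a4, Aqp4 and Clu lie above 0 on all their probe sets, while 8 genes have probe sets on both sides.

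Counting every probe set rather than 1 per gene gave a similar picture. Of 76 expressed probe sets 61 had an M above 0, beside 52.3% of all 14610 expressed probe sets with a single symbol, namely 43 of 50 for astrocyte genes, 14 of 18 for regulators and 4 of 8 for stem cell genes. The Ts1Cje arrays lay above the disomic arrays without overlap on 6 of the 76, beside 5.82% of all, and these 6 measure Slc4a4, Aqp4, Ptprz1 and Slc1a3. Among the 20 genes with several expressed probe sets, 12 had all of them above 0, none had all below and 8 were mixed, including both stem cell genes with more than one. Probe sets of one gene share its transcripts and cultures and are not independent, and 4 of the brightest ones are of the kind that may bind other transcripts.

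One Ts1Cje culture was often below the other 2 on astrocyte genes. On 16 of the 23 expressed astrocyte genes Ts1Cje replicate 1 was the lowest of the Ts1Cje arrays, and replicates 2 and 3 were the highest of all 6 arrays on 7 and 10. It was the lowest Ts1Cje array on 2 of the 5 stem cell genes and 1 of the 6 expressed regulators. The same counts were not made over all expressed genes, so whether they are particular to astrocyte genes was not tested. Mean deviations of the secreted genes from their own means were -0.14, 0.19 and 0.56 on Ts1Cje replicates 1 to 3 and -0.10, -0.29 and -0.24 on disomic replicates 1 to 3. For stem cell genes they were -0.03, -0.04 and 0.06 in Ts1Cje and -0.00014, -0.17 and 0.18 in disomic cultures. For the water, ion and junction group, which includes Aqp4 and Slc4a4, they were 0.05, 0.23 and 0.15 in Ts1Cje and -0.25, -0.07 and -0.11 in disomic cultures, without overlap. Aqp4 and Slc4a4 had no overlap on their own, so the mean of this group is no further evidence. Its other expressed members, Atp1b2, Mlc1, Ttyh1 and Gja1, each had overlapping groups. For every other role the groups overlapped. Over all 23 expressed astrocyte genes the mean deviations were -0.10, 0.19 and 0.26 in Ts1Cje and -0.15, -0.15 and -0.06 in disomic cultures, again with overlap. Differences between the roles were not tested.

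Without Ts1Cje replicate 1 the cut off was passed by 5 members, Cst3, Clu, Aqp4, Apoe and Slc4a4, beside 2.32% of all expressed genes. Their M values were then 0.62, 0.99, 0.96, 0.68 and 0.53 with moderated t values of 5.17, 4.53, 4.09, 4.05 and 5.93, and none passed the adjustment in limma (smallest adjusted p = 0.881). With Ts1Cje replicate 1 left out Gfap had M = 1.14 and still a moderated t of only 1.36. These values rest on 2 Ts1Cje cultures. Ts1Cje replicate 1 was singled out here because it was low on astrocyte genes, so higher M values without it follow from that choice. The count of 5 is therefore no further evidence of a genotype difference. Leaving out any other single array gave 1 or 2 members past the cut off.

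**Figure D4:**
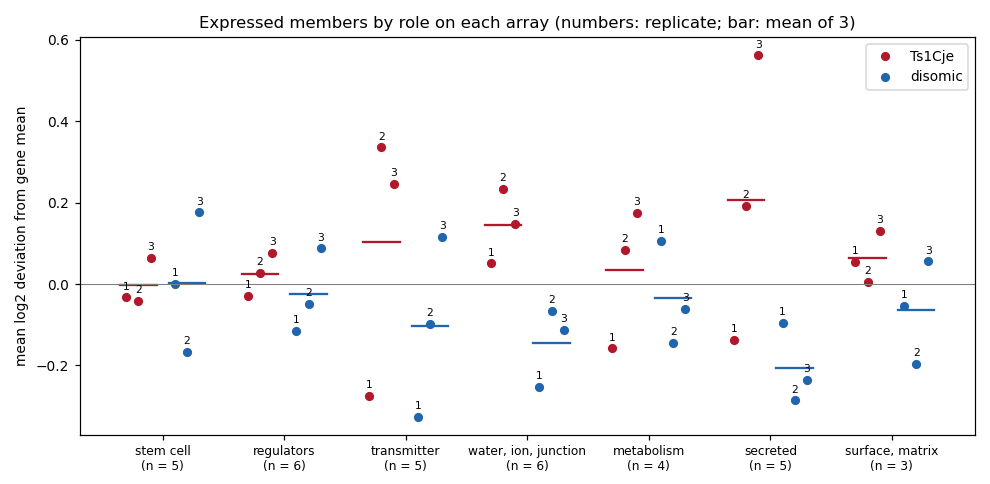
Average departure of expressed members from their own means, in log2 units and by role (vertical axis), with a point per array, replicate numbers beside the points, and bars for the mean of 3 arrays. For the stem cell genes the groups overlap around 0, and for the secreted genes Ts1Cje replicate 1 lies with the disomic arrays.

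A second list held 28 further genes of radial glia and astrocytes. It was measured on the same 6 arrays and chosen with earlier results known, so it is no independent support. Of its 24 expressed genes 19 had an M above 0 (79.2%), beside 53.9% of all expressed genes, with a median of 0.20. The Ts1Cje arrays all lay above the disomic arrays for 3 of them, beside 6.12% of all. None passed the cut off in either direction and 1 had an unadjusted p under 0.05. Closest was Slc25a18, a mitochondrial glutamate carrier of astrocytes. It read 11.37, 11.34 and 11.42 in Ts1Cje and 11.26, 11.15 and 11.24 in disomic neurospheres, with M = 0.16 and a moderated t of 3.98. Slc7a11, the cystine and glutamate exchanger, followed with M = 0.88 (standard error 0.35) and groups that met at 6.21. Hes5, the Notch effector that holds stem cells undifferentiated, had M = 0.54 and overlapping groups.

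Markers of other cells in the cultures did not pass the cut off in either direction. No microglia gene of 12 and no ependymal gene of 10 was expressed, and of 14 vascular genes only Acta2 and Cspg4 were, with M values of -0.35 and -0.07. Cspg4 is also on the oligodendrocyte lineage list and is counted there again, so its signal is not particular to vascular cells. Of the progenitor genes 5 were expressed, with a median M of -0.03, among them Egfr at M = -0.03 and Mki67, a gene of dividing cells, at M = -0.41 (standard error 0.23) with overlapping groups. Dll1, a Notch ligand, had M = 0.30 (standard error 0.26). Of 20 neuroblast and neuron genes 11 were expressed, among them Sox11 (M = -0.07), Gad1 (M = 0.47), Gad2 (M = -0.22) and Elavl4 (M = 0.06). The other 9 were not expressed, and of these Dcx and Tubb3 were at or near the floor of the arrays. The 11 expressed neuroblast and neuron genes had a median of 0.06. Elavl3, a neuronal RNA-binding protein, read 8.39, 8.04 and 8.07 in Ts1Cje and 7.33, 7.99 and 7.45 in disomic neurospheres, without overlap (M = 0.58, standard error 0.22), and Nrxn3, a neurexin, had M = 0.56 (standard error 0.28). The 8 expressed oligodendrocyte lineage genes had a median of -0.03, with the precursor receptor Pdgfra at -0.72 and the myelin gene Mbp at -0.35 (standard errors 0.97 and 0.49). Among the 8, Olig1 (M = 0.13) and Olig2 (M = -0.03) lie on chromosome 16, which carries the trisomic segment. Nes, Sox2, Fabp7, Prom1, Vim and Egfr, which mark stem cells and progenitors, were above the level of expression on every array, as were genes of other lineages such as Olig1, Map2 and Mbp. Whether the mixture of cells differed between the genotypes was not tested.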

How the data were processed

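RNA of 3 Ts1Cje and 3 disomic neurosphere cultures was labelled in a two-cycle protocol and hybridised to Affymetrix arrays. The authors deposited log2 intensities per probe set, made with GCRMA (version not given in the sources used here), which corrects background by probe composition and normalizes between arrays. Raw scans were not used here, so those steps were not repeated. Genes were named through the platform annotation where it gives 1 symbol, which held for 34945 probe sets, and 64 control probe sets were kept apart. A linear model with genotype alone was fitted to all 45037 probe sets in limma 3.58.1 (R 4.3.3), with two-sided moderated t and Benjamini-Hochberg adjustment over all of them, and was tested on simulated data. The prior degrees of freedom were 0.336. Expressed means A above 5. Values on every array were given for the stem cell genes, Gfap and each member past a moderated t of 4 or without overlap, for members whose probe sets disagree in sign with one of them free of overlap, and for up to 2 genes of each other list. Clu, Apoe, Cst3, Hes5 and other genes outside this rule were picked after their values were seen. The members and lists were chosen with earlier results of these data known. The study describes pairs of littermates, but the labels tie no replicate number to a pair, and same-numbered arrays did not deviate together. Alternatives were a replicate block, leaving out each array, cyclic loess, array weights, an intensity-dependent prior, other levels for expression and averaged probe sets. The labels call the replicates biological. Figures used Python 3.11.15 and matplotlib 3.10.9.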

Additional observations from a re-analysis of the deposited data

How the results depend on the processing

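The median M of the stem cell genes ran from -0.06 to 0.10 and that of the astrocyte genes from 0.10 to 0.26 when single arrays were left out. These shifts were smaller than the standard deviation between arrays of a group. Leaving out 1 of 3 arrays can hardly move a median further than that, so the comparison is a weak check. Other settings gave 0.12 to 0.22 for the astrocyte genes. Members above a moderated t of 4 numbered 1 to 5 without single arrays, 2 with a replicate block (Slc4a4, and Aqp4 with a moderated t of 4.58) and 0 with averaged probe sets, and none fell below -4 under any setting run. Without disomic replicate 2 they were Aqp4 and Slc4a4, and without disomic replicate 3 Ptprz1 and Slc4a4. Same-numbered arrays did not deviate together (correlations of deviations -0.17, -0.03 and 0.13), and Ts1Cje replicate 1 deviated most like disomic replicate 2 (0.40). With 3 arrays per genotype these correlations cannot show whether same-numbered cultures came from littermates. Several genes changed sign. Without single arrays M ran from -0.057 to 0.27 for Nes, -0.064 to 0.11 for Sox2, -0.091 to 0.10 for Fabp7, -0.050 to 0.11 for Vim, -0.26 to -0.06 for Prom1, 0.15 to 0.35 for Ptprz1 and -0.86 to 1.14 for Gfap. With array weights it was 0.046 for Sox2 and 0.042 for Gfap, and with averaged probe sets -0.0067 for Vim. Leaving out Ts1Cje replicate 3 moved 9 of 34 members across 0, among them Sparcl1, and leaving out disomic replicate 2 moved 9. The cause of these changes was not tested.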

Other observations

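A further list held 21 genes of reactive astrocytes and of signalling, such as Lif and Bmpr1a. Of these 8 were expressed and 13 were not, where 9246 of all 18193 genes were not. Lcn2, Serpina3n, Timp1 and Hspb1, which astrocytes induce on injury, were among the 13, while Emp1 and S1pr3 were expressed (A = 6.29 and 5.27). S1pr3 had M = -0.59 (standard error 0.62) and overlapping groups. The expressed genes had a median M of 0.09, with 5 above 0 and 3 below, and none passed a moderated t of 4. Il6st, the shared receptor subunit of the interleukin 6 family that drives astrocyte differentiation through Stat3, read 9.58, 9.47 and 9.57 in Ts1Cje and 9.21, 8.85 and 9.37 in disomic neurospheres (M = 0.39, standard error 0.15). Emp1, an epithelial membrane protein, ran the other way without overlap, at 6.16, 5.79 and 6.10 in Ts1Cje and 6.44, 7.00 and 6.27 in disomic neurospheres (M = -0.56, standard error 0.24). Stat3 itself had M = 0.16 and overlapping groups.

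A dimmer probe set of Atp1b2, with A = 4.73, was under the level taken as expressed. It read 4.49, 4.85 and 6.21 in Ts1Cje and 4.13, 4.24 and 4.44 in disomic neurospheres (M = 0.91, standard error 0.51, moderated t 1.79). The groups lacked overlap only narrowly, at 4.49 and 4.44, and Ts1Cje replicate 3 was far above the rest. The expressed probe set of Atp1b2 had overlapping groups. The share without overlap among probe sets under that level was not counted.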
